A study of Homo sapiens with 4 samples.

Results

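The mRNAs described here encode 9 proteins of the 7SK particle, of the kinase P-TEFb and of the factors that bring P-TEFb to genes. They are LARP7, MEPCE, HEXIM1, HEXIM2, CDK9, CCNT1, CCNT2, AFF4 and AFF1, chosen by gene symbol, and all 9 were present among the 26830 genes of the data. The libraries came from U2OS, an osteosarcoma cell line, infected with a lentiviral construct for Flag-tagged QKI7, 1 of the isoforms of the RNA-binding protein QKI, and kept as GFP-positive cells. RNA recovered with a Flag antibody after ultraviolet cross-linking (Flag-RIP, n = 2 libraries) was compared with input RNA of the same kind of cells (n = 2 libraries), to ask which transcripts QKI7 binds. All 4 libraries carry the tagged protein. A mock precipitation and cells without the tag were not analysed here, so recovery by the tagged protein and by the beads cannot be told apart. The labels number the replicates 1 and 2 and do not say that they were separate cultures. The p-values therefore describe the spread of these samples alone, which the tests of single genes pool over genes, and that spread may be technical.

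P-TEFb is the kinase CDK9 with a T-type cyclin, encoded by CCNT1 or CCNT2, and it releases paused RNA polymerase II into elongation. Much of it is held inactive on the noncoding RNA 7SK by HEXIM1 or HEXIM2. MEPCE caps the 5′ end of 7SK and LARP7 holds its 3′ end, and both stay on the RNA. AFF4 and AFF1 are scaffolds of the super elongation complex, which carries active P-TEFb to genes. QKI binds RNA at ACUAAC-like sequences.

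Values are TPM, a share of each library corrected for transcript length. TPM holds no read depth, which is thus unknown, and counting intervals could not be made. At 1 TPM or more there were 6117 and 7803 genes in the inputs and 11970 and 12098 in Flag-RIP. The ERCC spike-in RNAs took 2.78% and 3.89% of the TPM in the inputs and 18.9% and 25.6% in Flag-RIP. Of 6 mesenchymal markers, 4 had at least 1 TPM in every library, RUNX2 ranged from 0.61 to 6.52 TPM, and COL1A2 stayed under 1 TPM. All 4 epithelial and all 5 blood markers stayed under 1 TPM, with summed levels of 0.61 to 0.66 and 0.04 to 0.08 TPM in input and of 1.52 to 1.85 and 0.25 to 0.50 TPM in Flag-RIP.

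Promoter sequences are shown for the 3 mRNAs called in the main fit with library medians set equal, described below, to place the genes and their start sites. RefSeq windows (GRCh38.p14) matched all 9 genes, 15 windows in all because some genes have several starts. Each line gives the 250 bases before the start, 5′ to 3′, with a searched motif in capitals: the TATA box TATAAA in HEXIM1 and the E-box CACGTG in AFF4 and MEPCE.
HEXIM1: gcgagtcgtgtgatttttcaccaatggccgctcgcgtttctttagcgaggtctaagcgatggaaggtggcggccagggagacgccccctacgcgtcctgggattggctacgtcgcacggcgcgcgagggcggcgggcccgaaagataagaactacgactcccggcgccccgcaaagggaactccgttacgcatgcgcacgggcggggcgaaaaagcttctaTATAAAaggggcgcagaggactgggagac
AFF4: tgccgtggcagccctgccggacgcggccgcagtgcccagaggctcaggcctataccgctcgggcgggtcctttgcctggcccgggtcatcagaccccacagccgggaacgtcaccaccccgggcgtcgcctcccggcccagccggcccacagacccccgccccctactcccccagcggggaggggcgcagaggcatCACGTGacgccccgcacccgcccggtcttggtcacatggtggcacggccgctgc
MEPCE: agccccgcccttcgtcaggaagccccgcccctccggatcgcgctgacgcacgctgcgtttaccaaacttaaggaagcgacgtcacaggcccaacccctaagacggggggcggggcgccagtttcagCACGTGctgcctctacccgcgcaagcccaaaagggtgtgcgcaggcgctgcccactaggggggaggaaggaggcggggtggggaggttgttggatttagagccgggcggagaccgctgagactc
The HEXIM1 stretch is chr17:45148225-45148474 on the + strand, with the motif starting 29 bases before the start site. The AFF4 stretch is chr5:132963635-132963884 on the - strand, with the motif 54 bases before the start. The MEPCE stretch, from 1 of its starts, is chr7:100429197-100429446 on the + strand, with the motif 124 bases before the start. Searched on both strands, TATAAA was in 10.7% and CACGTG in 6.34% of 35116 such windows. CACGTG also lay before CCNT1, and TGACGTCA, in 1.65% of windows, lay before LARP7, and no matches overlapped. In the first 50 transcribed bases, searched on the sense strand, ACTAAC, the QKI sequence in DNA letters, was in 0 of the 15 windows of these genes and in 0.373% of all windows. That search covers only those bases, not the rest of the mRNA.

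HEXIM1 spans chromosome 17 from 45148475 to 45152099, and its paralog HEXIM2 follows on the same chromosome from 45160174 to 45170040, 8074 bases further on. MEPCE lies on chromosome 7 from 100428790 to 100434118 and LARP7 on chromosome 4 from 112637143 to 112657586. CDK9 lies on chromosome 9 from 127786034 to 127790792, CCNT1 on chromosome 12 from 48688458 to 48716707, and CCNT2 on chromosome 2 from 134918822 to 134959342. AFF4 lies on chromosome 5 from 132875395 to 132963634 and AFF1 on chromosome 4 from 86935011 to 87141039. The table gives 1 value per gene, so the exon, intron or UTR from which RNA was recovered is not known. RefSeq places the lncRNA HEXIM2-AS1 over 2438 bases of HEXIM1 and 1365 bases of HEXIM2, and the sources used here do not give whether counting used the strand. Reads of these genes and of that antisense RNA may therefore not be separated. The microRNAs MIR302A, MIR302B, MIR302C, MIR302D and MIR367 within LARP7 are listed at 0 in all 4 libraries.

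All 9 mRNAs had higher TPM in both Flag-RIP libraries than in both inputs, and so did 96.7% of the tested genes. Their mean TPM rose by ratios from 1.93 for MEPCE to 7.92 for CCNT2, with a median of 3.72, against 3.32 over all 10415 tested genes. As deposited, all 9 passed the test in the upward direction (limma on log2(TPM + 1), Benjamini-Hochberg adjusted p from 7.8e-10 to 0.0090) and 0 in the downward direction. Of all tested genes, 92.3% were called higher and 0.317% lower, so the count of 9 is near this background. The SEs of this fit were pooled over genes of like level and do not measure the spread of each gene's own replicates. With the trend of variance on level left out, all 9 had the same SE, 0.273. The small p-values as deposited rest on that pooling. The median log2(TPM + 1) change was 1.34 for the 9 mRNAs and 1.2 for all tested genes. HEXIM2, CCNT1 and CCNT2 had input means below 1 TPM and passed the filter on low values, a mean TPM of at least 1, through their Flag-RIP levels. The other 6 had an input mean of at least 1. With either Flag-RIP library left out fewer of the 9, and fewer of all tested genes, were called higher. With spike-in scaling 0 were called higher and 5 lower, where 3.06% of all tested genes were called higher and 60.5% lower.

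**Figure D1:**
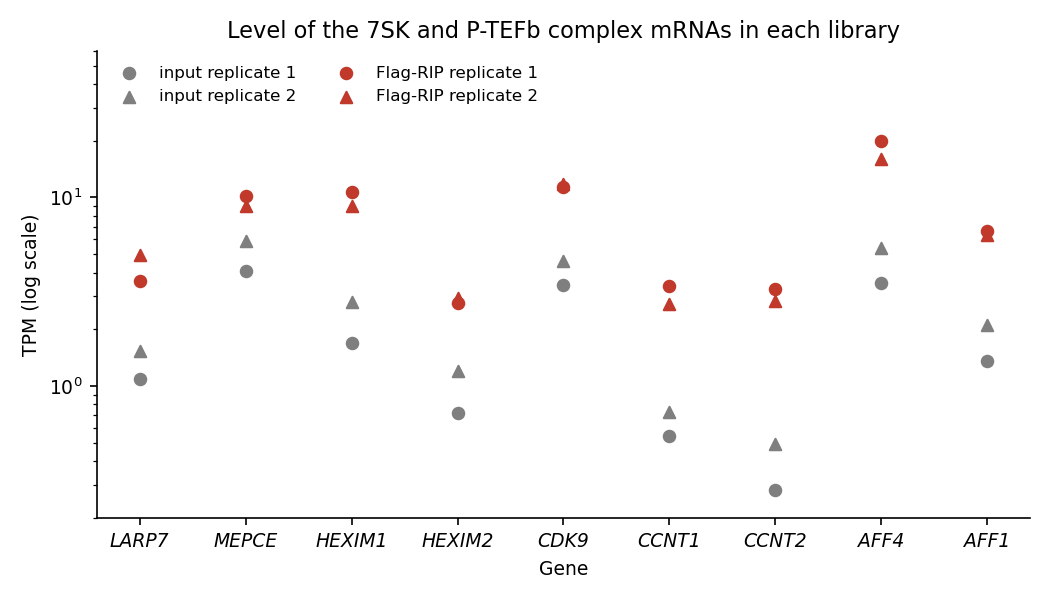
TPM of the 9 mRNAs (log axis) in each of the 2 input libraries (grey) and 2 Flag-RIP libraries (red), with circles for replicate 1 and triangles for replicate 2. The red points lie above the grey points for every gene, with the widest gap for CCNT2 and the narrowest for MEPCE.

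Because nearly every gene rose as deposited, changes were also taken with the medians of all libraries set equal, and these are called centred changes. On that scale HEXIM1 and AFF4 were higher, MEPCE was lower, and the other 6 were not called. Of all tested genes, 16.4% were called higher and 24.4% lower, so the counts of 2 and 1 are near this background. The median centred change was 0.02 for the 9 mRNAs and -0.11 for all tested genes. Adding 1 to the TPM compresses low genes, so ranks by centred change differ from ranks by ratio of means. Among tested genes AFF4 lay at the 87.8 percentile by centred change and 66.2 by ratio, HEXIM1 at 85.7 and 71.5, and CDK9 at 61.0 and 38.2. CCNT1, CCNT2 and HEXIM2, low in input, ranked lower by centred change than by ratio, CCNT1 at 58.9 and 77.9. After centring, both Flag-RIP values lay above both inputs for HEXIM1, AFF4, AFF1 and CCNT2, and below them for MEPCE and HEXIM2. That is 4 and 2 of 9, where 29.4% of tested genes lay above and 47.3% below. The 3 centred calls were lost without input replicate 1 and without input replicate 2, as given for each gene below.

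**Figure D2:**
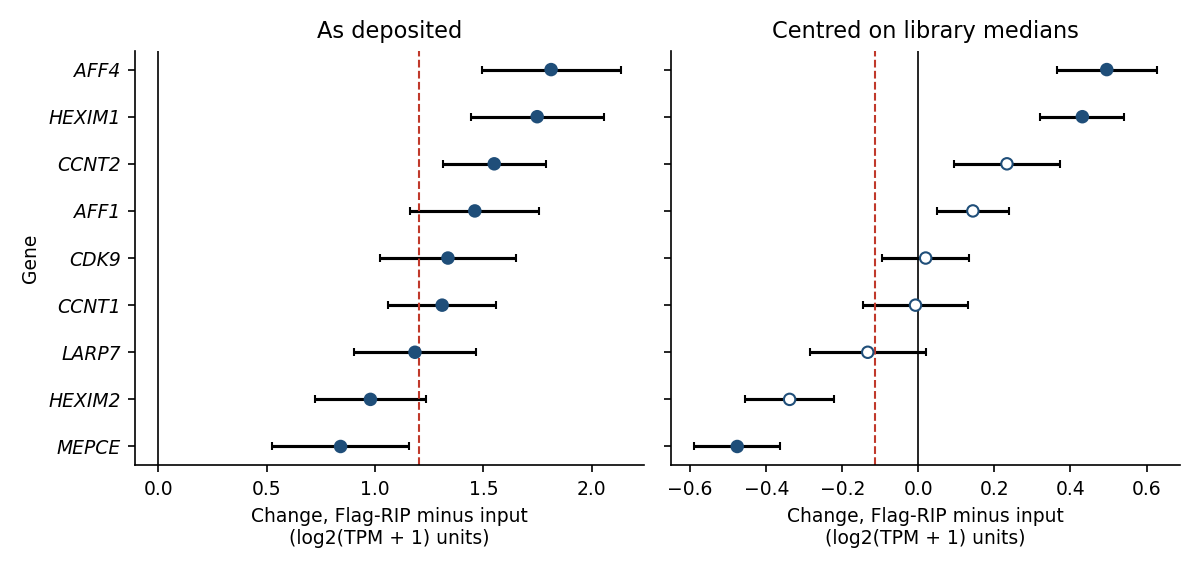
Change of each mRNA in Flag-RIP against input, in log2(TPM + 1) units, as deposited (left) and centred on the library medians (right). Points are limma estimates from 2 against 2 libraries with bars of 1 SE, filled where the adjusted p was under 0.05, and the dashed line is the median of all tested genes. All 9 points are right of 0 on the left, while on the right they run from -0.48 to 0.50.

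Of the mRNAs for proteins that stay on 7SK, MEPCE was called after centring and LARP7 was not. MEPCE, the capping enzyme, had 4.09 and 5.86 TPM in the inputs and 10.2 and 8.97 TPM in Flag-RIP. The Flag-RIP libraries were higher and the groups did not overlap, but the ratio of means was 1.93, at the 13.0 percentile of tested genes. It changed by 0.84 log2 units as deposited (limma, SE 0.32, adjusted p = 0.0090) and by -0.48 after centring (SE 0.11, adjusted p = 0.014). The centred call did not pass without input replicate 1 (-0.49, limma adjusted p = 0.12) or without input replicate 2 (-0.46, limma adjusted p = 0.11). It also did not pass with a pseudocount of 5 (-0.11) or with the 20 most abundant rows removed (-0.32), and with no filter the value was 0.081. It was -0.77 with a pseudocount of 0.1 and -1.60 with spike-in scaling, and passed as lower in both. As deposited, MEPCE did not pass without Flag-RIP replicate 1 (0.75, limma adjusted p = 0.26) or replicate 2 (0.93, limma adjusted p = 0.18).

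LARP7, the La-related protein that protects the end of 7SK, tracked the median gene. It had 1.09 and 1.54 TPM in the inputs and 3.60 and 4.96 TPM in Flag-RIP, again with no overlap. Its ratio of means was 3.25, at the 48.5 percentile. It changed by 1.18 log2 units as deposited (limma, SE 0.28, adjusted p = 4.5e-05) and by -0.13 after centring (SE 0.15, adjusted p = 0.50). The Flag-RIP replicates of LARP7 differed: the centred value was 0.092 without replicate 1 and -0.36 without replicate 2, where it passed as lower (limma adjusted p = 0.0035). LARP7 also passed as lower with spike-in scaling (-0.81, limma adjusted p = 0.0061) and as higher with no filter (0.42, limma adjusted p = 0.043). As deposited, LARP7 did not pass without Flag-RIP replicate 2 (1.00, limma adjusted p = 0.10).

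RN7SK, the RNA that these proteins hold, was far more abundant than their mRNAs. RN7SK had 18125 and 20755 TPM in the inputs and 199780 and 101623 TPM in Flag-RIP. Its TPM was 1085 and 839.6 times the summed TPM of the 9 mRNAs in the inputs, and 2787 and 1551 times in Flag-RIP. This ratio within a library does not depend on how libraries are scaled, and both Flag-RIP libraries lay above both inputs. The Flag-RIP replicates of RN7SK differed from each other by more TPM than the lower of them did from the inputs. TPM of short RNAs also depends on the length correction, so the level of RN7SK against mRNAs is less certain than its change.

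Of the mRNAs for P-TEFb inhibitors, HEXIM1 was called higher after centring and HEXIM2 was not called. HEXIM1, the main inhibitor of P-TEFb, had 1.70 and 2.80 TPM in the inputs and 10.6 and 8.96 TPM in Flag-RIP, a ratio of means of 4.35 at the 71.5 percentile. It changed by 1.75 log2 units as deposited (limma, SE 0.31, adjusted p = 6.4e-08) and by 0.43 after centring (SE 0.11, adjusted p = 0.018). The centred call did not pass without input replicate 1 (0.38, limma adjusted p = 0.19) or without input replicate 2 (0.48, limma adjusted p = 0.098). HEXIM1 was 0.99 with no filter and 0.85 without the 20 most abundant rows. Scaled to the spike-ins the direction turned, to -0.50 (limma adjusted p = 0.12).

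HEXIM2, which can stand in for HEXIM1, had 0.72 and 1.2 TPM in the inputs and 2.75 and 2.92 TPM in Flag-RIP. The groups did not overlap, and the ratio of means was 2.95, at the 40.0 percentile. It changed by 0.98 log2 units as deposited (limma, SE 0.26, adjusted p = 2.1e-04) and by -0.34 after centring (SE 0.12, adjusted p = 0.052), just outside the threshold. It passed as lower without Flag-RIP replicate 2 (-0.41, limma adjusted p = 0.0072), with robust variance (limma adjusted p = 0.047), with a pseudocount of 5 (-0.27, limma adjusted p = 0.0063) and with spike-in scaling (-0.80, limma adjusted p = 0.0057). It was 0.22 with no filter and 0.30 without the 20 most abundant rows, and passed in neither. As deposited, HEXIM2 did not pass without either Flag-RIP library (limma adjusted p = 0.059 for both).

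A plain TPM ratio of 2 mRNAs within a library is free of the scaling of that library, while a ratio of TPM with a pseudocount is not. HEXIM1 had 2.36 and 2.33 times the TPM of HEXIM2 in the inputs, and 3.87 and 3.07 times in Flag-RIP. On the log2(TPM + 1) scale the ratio was higher by 0.77 in Flag-RIP, with both Flag-RIP libraries above both inputs. It was 0.60 when 0.1 was added to the TPM in place of 1, 0.64 when 5 was added and 0.55 from the plain ratios, again with no overlap. With 2 libraries against 2, the exact permutation test (two-sided) cannot go below 0.33, which is the p of each of the 3 paralog pairs compared here (0.33 adjusted over the pairs).

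The mRNAs of the kinase subunit and of its cyclins were not called after centring. CDK9 had 3.42 and 4.59 TPM in the inputs and 11.4 and 11.7 TPM in Flag-RIP, with close Flag-RIP replicates. Its ratio of means was 2.89, at the 38.2 percentile. It changed by 1.34 log2 units as deposited (limma, SE 0.32, adjusted p = 4.2e-05) and by 0.02 after centring (SE 0.11, adjusted p = 0.90). CDK9 passed in opposite directions in other settings. It was higher with no filter, centred (0.58, limma adjusted p = 0.030), and lower with spike-in scaling, not centred (-1.09, limma adjusted p = 0.0014). As deposited it did not pass without Flag-RIP replicate 1 (1.36, limma adjusted p = 0.059) or replicate 2 (1.32, limma adjusted p = 0.062).

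CCNT1, the cyclin that HIV Tat also binds, had 0.54 and 0.73 TPM in the inputs and 3.39 and 2.73 TPM in Flag-RIP. Its ratio of means was 4.82, at the 77.9 percentile, a rank that is in part set by the filter, which it passed through its Flag-RIP level. It changed by 1.31 log2 units as deposited (limma, SE 0.25, adjusted p = 5.2e-07) and by -0.0075 after centring (SE 0.14, adjusted p = 0.97). The centred value followed the pseudocount, with 0.39 at 0.1 and -0.15 at 5. CCNT1 passed as higher with no filter (0.55) and, not centred, without the 20 most abundant rows (0.91).

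CCNT2, the second T-type cyclin, was the lowest of the 9 in input, at 0.28 and 0.49 TPM, and had 3.26 and 2.84 TPM in Flag-RIP. Its ratio of means, 7.92, was the largest of the 9 and lay at the 93.3 percentile. A gene this low in input passed the filter only if its Flag-RIP level was well above it. The high rank of CCNT2 and its call as deposited are thus in part set by the filter. It changed by 1.55 log2 units as deposited (limma, SE 0.24, adjusted p = 7.8e-10) and by 0.23 after centring (SE 0.14, adjusted p = 0.21). A pseudocount of 1 is larger than both inputs, so this scale compresses the change of CCNT2. With a pseudocount of 0.1 the centred change was 1.01 and passed (limma adjusted p = 0.0088), and with a pseudocount of 5 it was -0.087. It also passed with no filter (0.79), with quantile normalization (0.44) and without the 20 most abundant rows (1.58). Its ratio rests on 2 low inputs that differ from each other, giving 11.6 in replicate 1 and 5.80 in replicate 2.

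CCNT1 had 1.93 and 1.49 times the TPM of CCNT2 in the inputs and 1.04 and 0.96 times in Flag-RIP. The log2(TPM + 1) ratio of CCNT1 over CCNT2 differed by -0.24 from input, with no overlap between the groups, by -0.62 when 0.1 was added, by -0.064 when 5 was added and by -0.76 from the plain ratios (exact permutation p = 0.33 in each). CDK9 had 4.17 and 3.76 times the summed TPM of both cyclins in the inputs and 1.71 and 2.11 times in Flag-RIP. Both Flag-RIP libraries thus held less CDK9 mRNA per T-type cyclin mRNA than both inputs. This measure was chosen after the values were seen and was not tested. It divides by CCNT1 and CCNT2, whose input means were only 0.635 and 0.385 TPM and which passed the filter through their Flag-RIP levels.

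Of the mRNAs for scaffolds of the super elongation complex, AFF4 was called higher after centring and AFF1 was not called. AFF4 had 3.51 and 5.39 TPM in the inputs and 19.8 and 16.1 TPM in Flag-RIP, a ratio of means of 4.03 at the 66.2 percentile. It changed by 1.81 log2 units as deposited (limma, SE 0.32, adjusted p = 7.6e-08) and by 0.50 after centring (SE 0.13, adjusted p = 0.021). These were the highest of the 9 with a pseudocount of 1, but with 0.1 CCNT2 changed more (2.73 against 2.01 as deposited), and by ratio of means AFF4 came after CCNT2, CCNT1 and HEXIM1. The centred call did not pass without input replicate 1 (0.44, limma adjusted p = 0.17), without input replicate 2 (0.55, limma adjusted p = 0.087) or with a pseudocount of 0.1 (0.29, limma adjusted p = 0.12). With no filter AFF4 was 1.05. Scaled to the spike-ins the direction turned, to -0.65 (limma adjusted p = 0.066).

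AFF1, a frequent fusion partner of KMT2A in leukaemia, had 1.36 and 2.12 TPM in the inputs and 6.62 and 6.32 TPM in Flag-RIP. Its ratio of means was 3.72, at the 59.7 percentile and the middle value of the 9. It changed by 1.46 log2 units as deposited (limma, SE 0.30, adjusted p = 2.5e-06) and by 0.14 after centring (SE 0.095, adjusted p = 0.25). It passed as higher with no filter (0.70, limma adjusted p = 0.0018) and without the 20 most abundant rows (0.62, limma adjusted p = 0.043), and as lower with spike-in scaling (-0.67, limma adjusted p = 0.028). As deposited it did not pass without Flag-RIP replicate 1 (1.43, limma adjusted p = 0.052). AFF1 had 0.387 and 0.393 times the TPM of AFF4 in the inputs and 0.334 and 0.393 times in Flag-RIP, so the plain ratios overlapped. The log2(TPM + 1) ratio of AFF1 over AFF4 differed by -0.35 from input, by -0.14 with a pseudocount of 0.1 and by -0.51 with a pseudocount of 5 (exact permutation p = 0.33 in each). From the plain ratios it differed by -0.11 (exact permutation p = 0.67), and by 0.0089 without Flag-RIP replicate 1.

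The order of levels among the 9, which TPM allows since it is per length, was the same in both inputs. From the highest input mean down it was MEPCE, AFF4, CDK9, HEXIM1, AFF1, LARP7, HEXIM2, CCNT1 and CCNT2. Neighbours in this order overlapped over the inputs, other than CDK9 with HEXIM1 and CCNT1 with CCNT2. In Flag-RIP AFF4 came first at 18.0 ± 2.63 TPM (SD, n = 2), followed by CDK9 at 11.6 ± 0.26. HEXIM1 at 9.80 ± 1.18 and MEPCE at 9.61 ± 0.90 could not be told apart, and CCNT1, CCNT2 and HEXIM2 lay between 2.73 and 3.39 TPM in both libraries. MEPCE thus came first in both inputs, and in Flag-RIP lay below AFF4 and CDK9 in both replicates.

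The same values as shares of the summed TPM of the 9 mRNAs are free of library scaling. The sum was 16.7 and 24.7 TPM in the inputs and 71.7 and 65.5 TPM in Flag-RIP. MEPCE took 24.5% and 23.7% of it in the inputs and 14.3% and 13.7% in Flag-RIP. AFF4 took 21.0% and 21.8% in the inputs and 27.6% and 24.6% in Flag-RIP, and HEXIM1 10.2% and 11.3% against 14.8% and 13.7%. CCNT2 took 1.68% and 1.98% in the inputs and 4.55% and 4.33% in Flag-RIP. The groups did not overlap for these 4, nor for CDK9, CCNT1 and AFF1, and they overlapped for LARP7 and HEXIM2. Such shares have no like count over all tested genes. On the centred scale, an unlike measure, both Flag-RIP values lay above both inputs for 29.4% of all tested genes and below for 47.3%. By that measure CDK9 and CCNT1 overlapped and HEXIM2 did not. Shares within a closed sum depend on each other, and they were not tested.

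**Figure D3:**
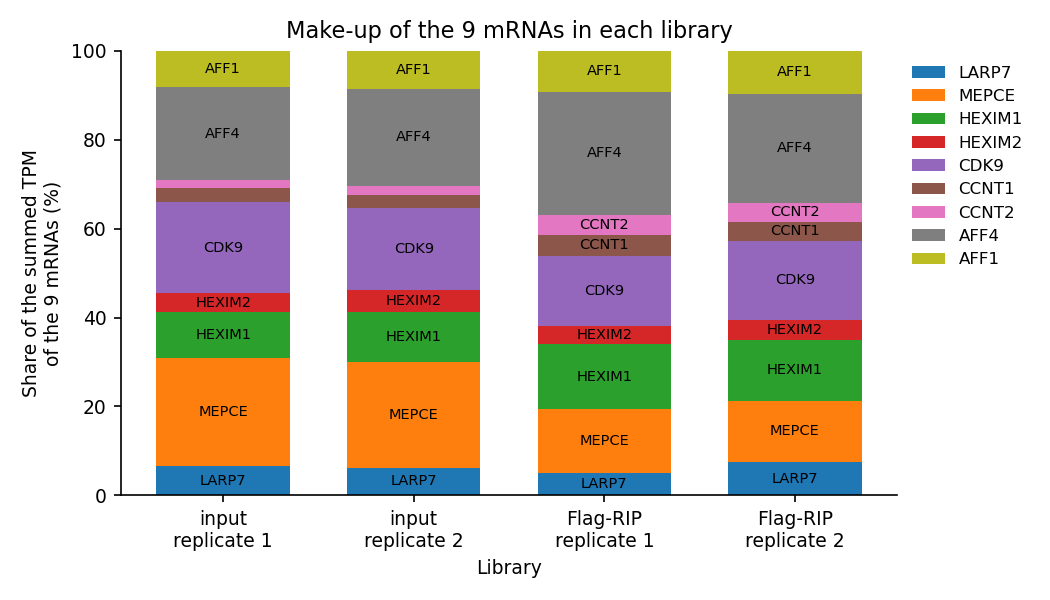
Share of the summed TPM of the 9 mRNAs taken by each gene (percent, stacked to 100%) in each of the 4 libraries. The MEPCE band narrows from 24.5% and 23.7% in the inputs to 14.3% and 13.7% in Flag-RIP, while the AFF4, HEXIM1 and CCNT2 bands widen.

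The mRNAs also differed between replicate numbers. For all 9 the ratio of Flag-RIP to input was larger in replicate 1 (2.50 to 11.6) than in replicate 2 (1.53 to 5.80). The median ratio of all tested genes was likewise 4.36 and 2.61. QKI itself, whose reads may include the transgene, had ratios of 15.9 and 7.18, above each of the 9 in both replicates. The tested genes whose log2(TPM + 1) values lay nearest to those of LARP7 over the 4 libraries were DHDDS (Euclidean distance 0.080), MRPS25 (0.097) and MFAP1 (0.10).

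**Figure D4:**
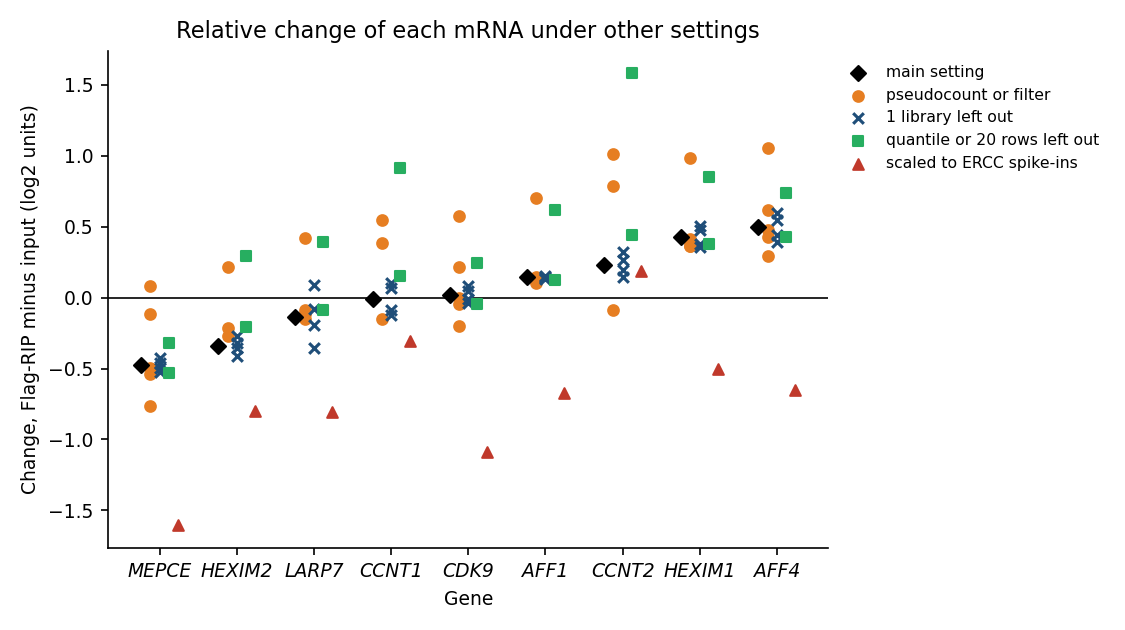
Change of each mRNA in Flag-RIP against input (log2 units) under the main centred setting (black diamonds) and under other pseudocounts and filters. Also shown are fits with 1 library left out, quantile normalization, the 20 most abundant rows removed and ERCC spike-in scaling. The fits with the 20 rows removed and with spike-in scaling were not centred. AFF4 and HEXIM1 stay above 0 in every setting shown other than the spike-in scaling, and MEPCE stays below 0 in every setting shown other than no filter.

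Genes that act with these proteins were read from 9 lists of 66 genes, of which 55 were tested, 11 of them with an input mean below 1 TPM. As deposited 54 were higher and 0 lower, and after centring 7 were higher and 7 lower, with a median centred change of -0.05. Over all tested genes the shares were 92.3% higher as deposited and 16.4% higher and 24.4% lower after centring, with a median of -0.11. The lists thus held a smaller share of lower calls than all tested genes did, and this difference was not tested. The single lists are small, and none was tested against that background. Among partners in the super elongation complex, 0 of 5 tested passed after centring in either direction (limma; 0 had an unadjusted p under 0.05). They included the elongation factor ELL (0.02, limma adjusted p = 0.90) and MLLT1 (-0.05, limma adjusted p = 0.78), and 4 of these 5 passed the filter through their Flag-RIP levels. Of 9 other recruiters and release factors, 1 rose and 1 fell. TRIM28 fell by 0.55 (limma adjusted p = 0.026), and the splicing factor SRSF2 had 0.41 and did not pass (limma adjusted p = 0.079).

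The next lists hold factors that keep polymerase at the pause or travel with it, read against the 24.4% of all tested genes called lower after centring. Of 6 pausing factors, 0 rose and 2 fell after centring, NELFE and SUPT4H1, with a median of -0.18. NELFE, a subunit of the negative elongation factor, had 15.7 and 18.6 TPM in the inputs and 21.4 and 22.2 TPM in Flag-RIP, and fell by 0.98 (limma adjusted p = 0.0028). It was the only tested gene of the lists not called higher as deposited (0.34, limma adjusted p = 0.31). NELFB had -0.25 and did not pass (limma adjusted p = 0.16). Of 5 PAF1 complex genes, 0 rose and 2 fell, WDR61 and CTR9, with a median of -0.33. WDR61 fell by 0.60 (limma adjusted p = 0.0064), while PAF1 had -0.33 (limma adjusted p = 0.10) and RTF1 -0.05 (limma adjusted p = 0.71). Of 4 Integrator genes, 0 rose and 1 fell, INTS9, by 0.73 (limma adjusted p = 0.028), and INTS1 had 0.08 (limma adjusted p = 0.75) and INTS11, named CPSF3L in the data, -0.29 (limma adjusted p = 0.097).

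Among other transcription kinases and cyclins 2 of 9 rose and 0 fell, with a median of -0.05, where 16.4% of all tested genes were called higher. CDK12, a kinase of the polymerase tail, had 2.16 and 3.67 TPM in the inputs and 16.6 and 15.2 TPM in Flag-RIP, and rose by 0.82 (limma adjusted p = 0.0026). The related CDK13 rose by 0.57 (limma adjusted p = 0.0083). Of 6 RNA-binding proteins that take up free 7SK, 1 rose and 0 fell. That was HNRNPA2B1, with 0.69 (limma adjusted p = 0.022), and HNRNPA1 had 0.04 (limma adjusted p = 0.89). Of 4 La and La-related genes, 0 rose and 1 fell, LARP6, by 0.36 (limma adjusted p = 0.037), and LARP1 had 0.46 (limma adjusted p = 0.062). Of 7 short-lived transcripts known to depend on P-TEFb, 3 rose and 0 fell, with a median of 0.35, against the same 16.4% and a median of -0.11 over all tested genes. They were EGR1 at 0.71 (limma adjusted p = 0.0066), JUN at 0.69 (limma adjusted p = 0.0086) and FOS at 0.64 (limma adjusted p = 0.0098), while IER2 had 0.35 (limma adjusted p = 0.13). FOS and, above, SUPT4H1 and CTR9 are named beyond the rule, to complete counts.

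Of the 14 centred calls in these lists, 1 passed without input replicate 1 (NELFE) and 7 without input replicate 2, against 12 without Flag-RIP replicate 1 and 14 without replicate 2. Scaled to the spike-ins, the 7 genes that rose had values below 0, and the 7 that fell still passed as lower. With no filter, 0 of the 7 falls passed and 4 had values above 0 (SUPT4H1, CTR9, TRIM28 and LARP6), and without the 20 most abundant rows 1 of the 7 passed (NELFE). The 7 rises passed in both of those settings.

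**Figure D5:**
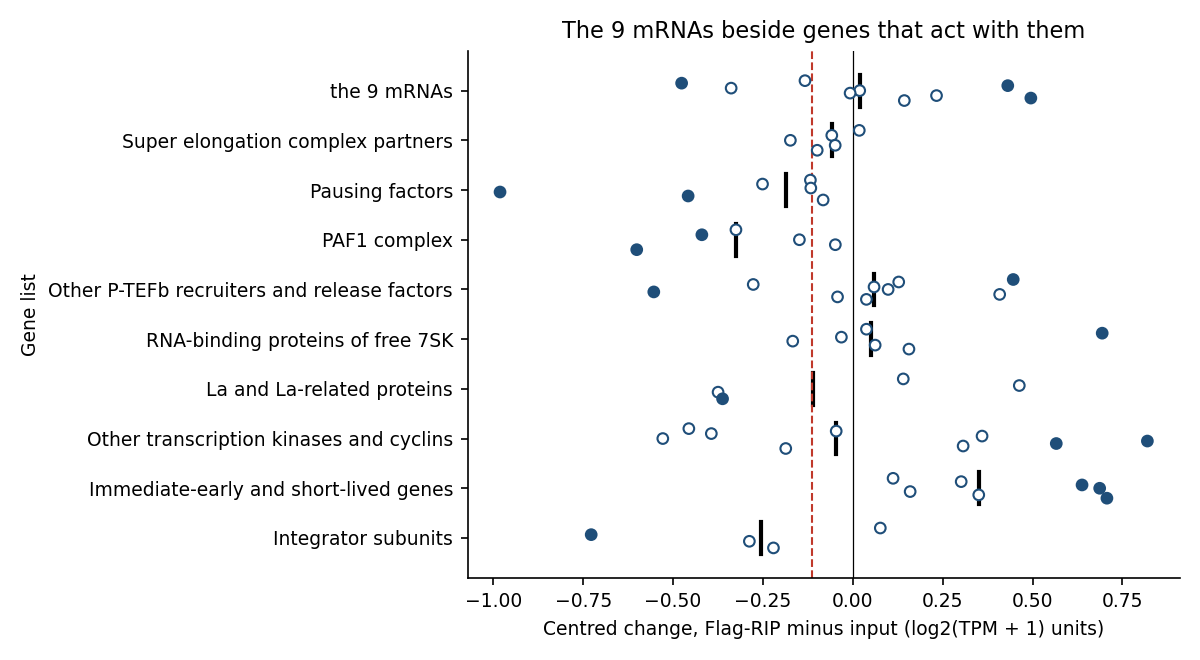
Centred change (log2(TPM + 1) units) of each tested gene in the 9 mRNAs and in the 9 lists of genes that act with them, filled where the limma adjusted p was under 0.05. Black bars are medians and the dashed line is the median of all tested genes, -0.11. The 9 mRNAs spread to both sides of that line, with HEXIM1 and AFF4 highest and MEPCE lowest.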

How the data were processed

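RIP-seq libraries of U2OS cells (2 input, 2 Flag-RIP) were grouped by the labels. The authors deposited 1 table of TPM values with 26830 genes and 92 ERCC rows, and each column sums to 1000000 within rounding. The tools STAR and RSEM (version 1.2.31) and the build GRCh38 are named per the submitters' processing notes. Annotation, filters and strandedness: not given in the sources used here.

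The 10415 genes whose TPM averaged 1 or more over all libraries were tested, without the ERCC rows. The test was limma (version 3.58.1, R 4.3.3; lmFit, eBayes with trend) on log2(TPM + 1). Tests were two-sided with Benjamini-Hochberg adjustment over all tested genes and a threshold of 0.05. This scale makes changes of low genes look smaller than they are. Centred changes come from the same fit after each library was shifted to a common median, since the Flag-RIP and input medians lay 1.32 log2 units apart. Plain ratios are of mean TPM, and percentiles are ranks among tested genes. Paralog ratios were tested by exact permutation. The scripts were tested on simulated data.

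The members and lists were chosen with earlier results of these data known. Of each list, the named genes were the 2 with the highest mean TPM and the largest centred rise and fall past the threshold. The 3 genes nearest LARP7 were taken by Euclidean distance. All 9 symbols matched RefSeq. BRD2 and INTS3 were not analysed here. 1 gene counted in the lists is not reported here by name. Alternatives were pseudocounts of 0.1 and 5, a mean TPM of at least 5, no filter, an input mean of at least 1 (added after the data were seen), no trend, robust variance, the replicate number as a block, each library left out, quantile normalization, the 20 most abundant rows left out, and spike-in scaling. The fits without the 20 rows and with spike-in scaling rescaled the TPM in place of centring.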

Additional observations from a re-analysis of the deposited data

How the results depend on the processing

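As deposited, the number of the 9 mRNAs called was 9, and 4 under the stricter filter, a mean TPM of at least 5, where only 4 were tested. Under that filter 87% of all tested genes were called higher. With an input mean of at least 1 it was 6 of 6, where 88.6% of all tested genes were called higher. Without either Flag-RIP library fewer of the 9 and fewer of all tested genes passed. Over the 12 or fewer alternatives of each gene, no change as deposited turned its direction. These do not include the rescaled fits, which were not centred either. With spike-in scaling every value other than CCNT2 (0.19) lay below 0, from -1.60 for MEPCE to -0.30 for CCNT1. Without the 20 most abundant rows MEPCE was -0.32, and the others stayed above 0. The number called after centring was 3, and 7 with no filter. In the rescaled fits without centring it was 5 without the 20 most abundant rows and 5 (all lower) when scaled to the spike-ins. Without either input library the 3 centred calls were lost and fewer of all tested genes passed. Without Flag-RIP replicate 2 more of the 9 and more of all tested genes passed. All tested genes moved too, from 16.4% higher and 24.4% lower to 3.19% and 3.09% without input replicate 1, 23.8% and 43.6% with no filter, 36% and 7.02% without the 20 rows, and 3.06% and 60.5% with spike-in scaling.

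Values that turned their direction against the main centred fit were as follows. With no filter LARP7 was 0.42, MEPCE 0.081, HEXIM2 0.22 and CCNT1 0.55. There many low genes enter, which moves the median. Without the 20 rows, a fit without centring, LARP7 was 0.40, HEXIM2 0.30 and CCNT1 0.91. Scaled to the spike-ins, also without centring, HEXIM1 was -0.50, CDK9 -1.09, AFF4 -0.65 and AFF1 -0.67. CDK9 was -0.20 and CCNT1 0.39 with a pseudocount of 0.1, and CCNT2 was -0.087 with a pseudocount of 5. CDK9 was -0.046 with a mean TPM of at least 5, -0.046 with quantile normalization and -0.0014 with an input mean of at least 1, and CCNT1 was 0.16 with quantile normalization. With 1 library left out CDK9 ranged from -0.041 to 0.079, CCNT1 from -0.12 to 0.11 and LARP7 from -0.36 to 0.092. Apart from the constructions named, the cause was not tested.

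The replicate number as a block gave 9 calls as deposited and 3 centred, and changed no call among the 9 mRNAs. Same-numbered deviations correlated at -0.067 over tested genes, so the pairing by number was not taken as shown. With a pseudocount of 1 the direction of the 3 paralog log ratios held with each library left out, and it held with the other pseudocounts and in the plain ratios, an alternative added after the data were seen. The plain ratio of AFF1 over AFF4 turned to 0.0089 without Flag-RIP replicate 1. TPM keeps no depth, so the counting error of the low inputs of CCNT1, CCNT2 and HEXIM2 is unknown.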
